A study of Mus musculus with 6 samples.

Results

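The lysosomal genes described here are 33 genes, taken by symbol from the deposited table of read counts. They are 7 cysteine cathepsins, 4 other peptidases, 7 glycosidases, 6 lipid-handling proteins, progranulin, 5 membrane proteins and 3 members of the TFEB family of transcription factors. All 33 were among the 49315 genes of the table. All 33 also passed the filter of at least 5 counts in at least 2 samples, which left 18234 genes for testing.

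The samples were bEND.3 cells, a permanent endothelial line from mouse brain, and the labels give no allele other than the knockdown. A GapmeR is a short antisense oligonucleotide that pairs with an RNA and, through its DNA core, has it cut by RNase H, with LNA bases at the ends to strengthen the pairing. With Lipofectamine 2000, 4 samples received an LNA GapmeR against the long noncoding RNA Gm39822 at 100 nM, and 2 samples received a negative control GapmeR, also at 100 nM. The labels name 1 GapmeR product for the knockdown, so an effect of losing Gm39822 and an effect of that oligonucleotide cannot be told apart. The GapmeR libraries 1 to 4 held 33074972, 37117934, 30264086 and 31067184 counts, and the negative controls held 29261988 and 34266811. Gm39822 itself had 2, 1, 4 and 2 counts in the GapmeR samples and 61 and 56 counts in the controls. All 14 endothelial markers were measured in every sample, and Egfl7, a secreted endothelial protein and the marker with the most counts, was at 2362 to 3008 CPM, which are counts scaled to the size of the library. The labels do not say that the samples came from separate cultures, so the p-values measure only the spread between these samples, which may be technical.

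Lysosomes are acidic organelles in which hydrolases break down protein, glycans, lipids and nucleic acids that arrive by endocytosis or autophagy. The proton pump called V-ATPase acidifies them, and most soluble enzymes reach them by way of mannose 6-phosphate receptors. TFEB, TFE3 and MITF are related helix-loop-helix leucine zipper factors that bind a short element, named CLEAR, found in the promoters of many lysosomal genes. While the kinase mTORC1 is active on the lysosome surface, TFEB is held in the cytoplasm by phosphorylation, so the amount of its transcript is not a measure of its activity.

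The core of the CLEAR element is the palindrome CACGTG, and the promoters of 4 genes that fell are printed because they hold different numbers of matches, from 4 to 0. Lamp1 had the most matches, and Gla and Mcoln1 had 2 each but changed by very different amounts. Lamp2 had the largest fall of the 33 and no match in the stretch printed. These 4 were chosen after their values were seen, so they do not stand for the whole set, which is counted below. Each sequence runs 5′ to 3′ on the gene's own strand from 250 bases before to 50 bases after the RefSeq start, on GRCm38.p6, with CACGTG in capitals. They lie at chr8:13158911-13159210 on the plus strand (Lamp1), chrX:134600956-134601255 on the minus strand (Gla), chr8:3500269-3500568 on the plus strand (Mcoln1) and chrX:38456411-38456710 on the minus strand (Lamp2).
Lamp1: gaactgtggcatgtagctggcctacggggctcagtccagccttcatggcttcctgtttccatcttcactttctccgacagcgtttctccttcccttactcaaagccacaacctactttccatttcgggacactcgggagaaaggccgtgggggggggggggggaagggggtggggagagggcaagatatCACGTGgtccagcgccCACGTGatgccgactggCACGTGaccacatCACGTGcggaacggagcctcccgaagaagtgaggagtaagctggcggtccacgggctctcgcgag
Gla: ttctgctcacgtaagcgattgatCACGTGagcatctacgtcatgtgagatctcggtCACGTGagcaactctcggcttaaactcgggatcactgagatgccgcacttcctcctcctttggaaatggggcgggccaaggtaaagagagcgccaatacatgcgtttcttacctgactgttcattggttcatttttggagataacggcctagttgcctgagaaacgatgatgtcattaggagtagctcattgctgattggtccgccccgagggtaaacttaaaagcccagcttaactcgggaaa
Mcoln1: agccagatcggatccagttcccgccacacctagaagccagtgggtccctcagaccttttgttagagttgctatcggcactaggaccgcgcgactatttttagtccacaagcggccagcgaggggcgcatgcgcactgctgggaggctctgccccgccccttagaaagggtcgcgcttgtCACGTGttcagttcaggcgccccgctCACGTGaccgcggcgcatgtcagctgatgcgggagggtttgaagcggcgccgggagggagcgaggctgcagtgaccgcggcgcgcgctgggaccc
Lamp2: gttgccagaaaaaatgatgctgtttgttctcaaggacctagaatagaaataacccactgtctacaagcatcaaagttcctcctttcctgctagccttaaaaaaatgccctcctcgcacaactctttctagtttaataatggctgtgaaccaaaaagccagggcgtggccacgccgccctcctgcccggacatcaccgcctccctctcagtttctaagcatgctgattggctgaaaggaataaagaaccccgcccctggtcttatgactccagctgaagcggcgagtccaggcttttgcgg

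In the Lamp1 promoter the 4 matches began 61, 45, 28 and 15 bases before the start. The 2 matches of Gla lay further away, at 227 and 194 bases before it, and those of Mcoln1 at 71 and 45 bases. Promoters were found for 29 of the 33 genes, with 37 promoters in all, and not for Ctsb, Ctsh, Npc1 and Asah1. CACGTG, which reads the same on both strands, was in at least 1 promoter of 11 of the 29 (37.9%), against 8.09% of the 27025 genes with a promoter in that table and 7.15% of its 32851 promoters. The 11 were Ctsa, Ctsd, Ctsf, Ctsl, Lgmn, Gaa, Gla, Glb1, Naglu, Lamp1 and Mcoln1. The longer TCACGTG, searched on both strands and always overlapping a CACGTG, was in 9 of the 29 (31.0%) against 4.29% of all genes. The palindrome made of CACGTG with GT before it and AC after it, also searched, was in 0 of the 29 against 0.37% of all genes. The median log2 fold change after knockdown was -0.48 in the 11 genes with CACGTG, of which 9 fell, and -0.34 in the 18 without it, of which 13 fell. A match is a run of letters and not a measured binding site.

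After knockdown most of the lysosomal genes were lower. Of the 33 genes, 25 fell, 3 rose and 5 did not pass the test, so 28 (84.8%) changed at an adjusted p under 0.05, while 45.3% of all 18234 genes tested did. The count that rose depended on single libraries, at 0 without the first control, 5 without GapmeR sample 2 and 1 without GapmeR samples 3 and 4 together, whereas 21 to 25 fell when any 1 library was left out. Over all genes the calls went from 8268 to 5232 without the second control. By direction, 75.8% of the lysosomal genes fell against 20% of all genes, and 9.09% rose against 25.4%. The median log2 fold change was -0.48 over the 33 genes and 0.03 over all genes tested. All 4 GapmeR samples lay below both controls in 25 of the genes and above both in 4, compared with 27.3% and 31.9% of all genes, or 59.2% on one side or the other. With a fold change of at least 1.5 also required, 9 fell and 2 rose, against 7.62% and 17.8% of all genes. When counts were scaled to library size only, the median of all genes moved from 0.03 to 0.17 and that of the lysosomal genes from -0.48 to -0.33. The share of calls that were higher then went from 55.9% to 74.1% over all genes and from 10.7% to 16.7% over the lysosomal ones. These are bulk RNA samples, in which fewer cells expressing a gene and less of its RNA per cell cannot be told apart.

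Each GapmeR sample showed the fall. Relative to the mean of the controls, GapmeR samples 1 to 4 had a median log2 difference over the 33 genes of -0.46, -0.50, -0.36 and -0.45, and that of all genes lay between 0.01 and 0.05. Added together, the 33 genes came to 8128, 7314, 8385 and 7929.8 CPM after knockdown and to 12210.4 and 12435 CPM in the controls. Psap held the largest share of that sum, 16.0% over all samples. The heat map of single samples shows the 4 GapmeR samples side by side. The plot of log2 fold changes gives each change with its standard error (SE). This SE was worked back from the F statistic of edgeR's test, so it is not separate evidence from the p-value.

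**Figure D1:**
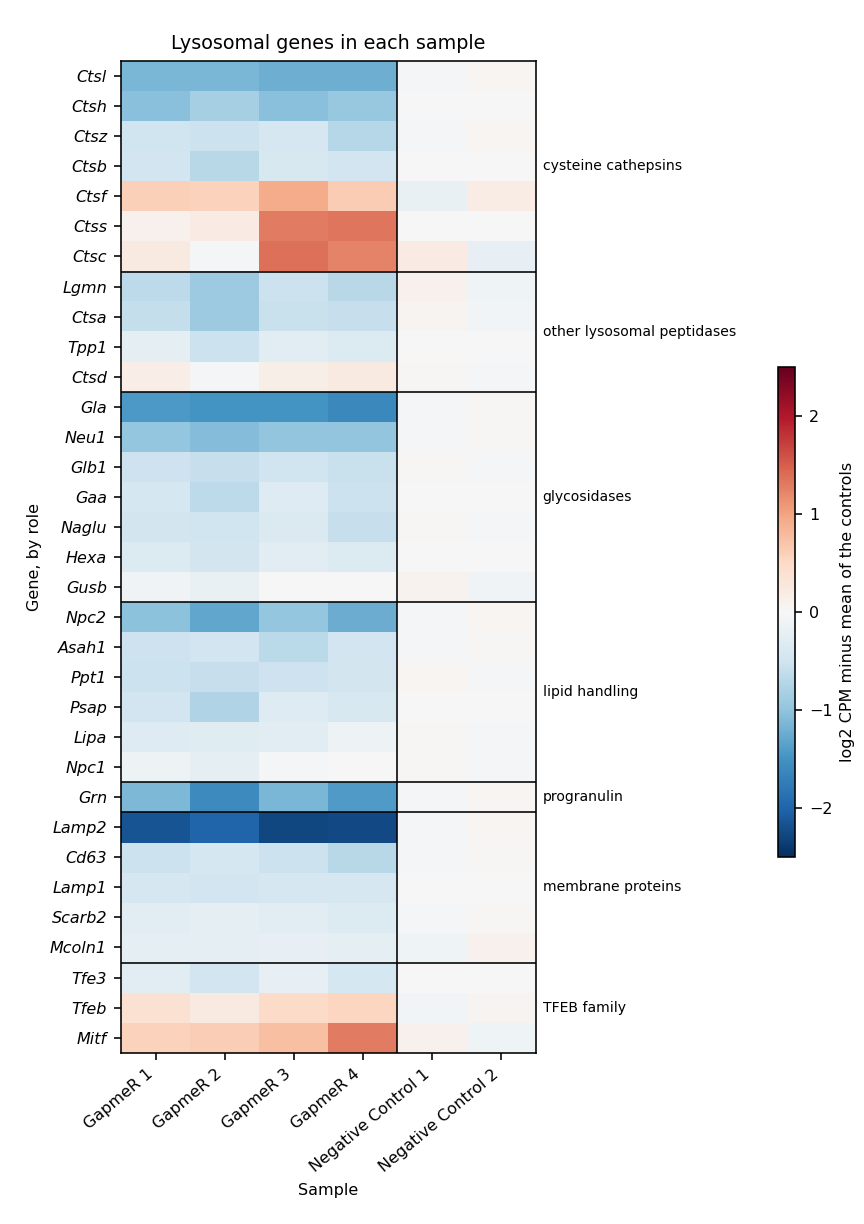
Heat map of the 33 lysosomal genes (vertical axis, grouped by role) in the 4 GapmeR and 2 negative control samples (horizontal axis), coloured by log2 CPM minus the mean of the controls. Lamp2 is the deepest blue in all 4 GapmeR samples, followed by Gla, or by Grn in GapmeR sample 2, while Ctss and Ctsc are red in GapmeR samples 3 and 4.

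**Figure D2:**
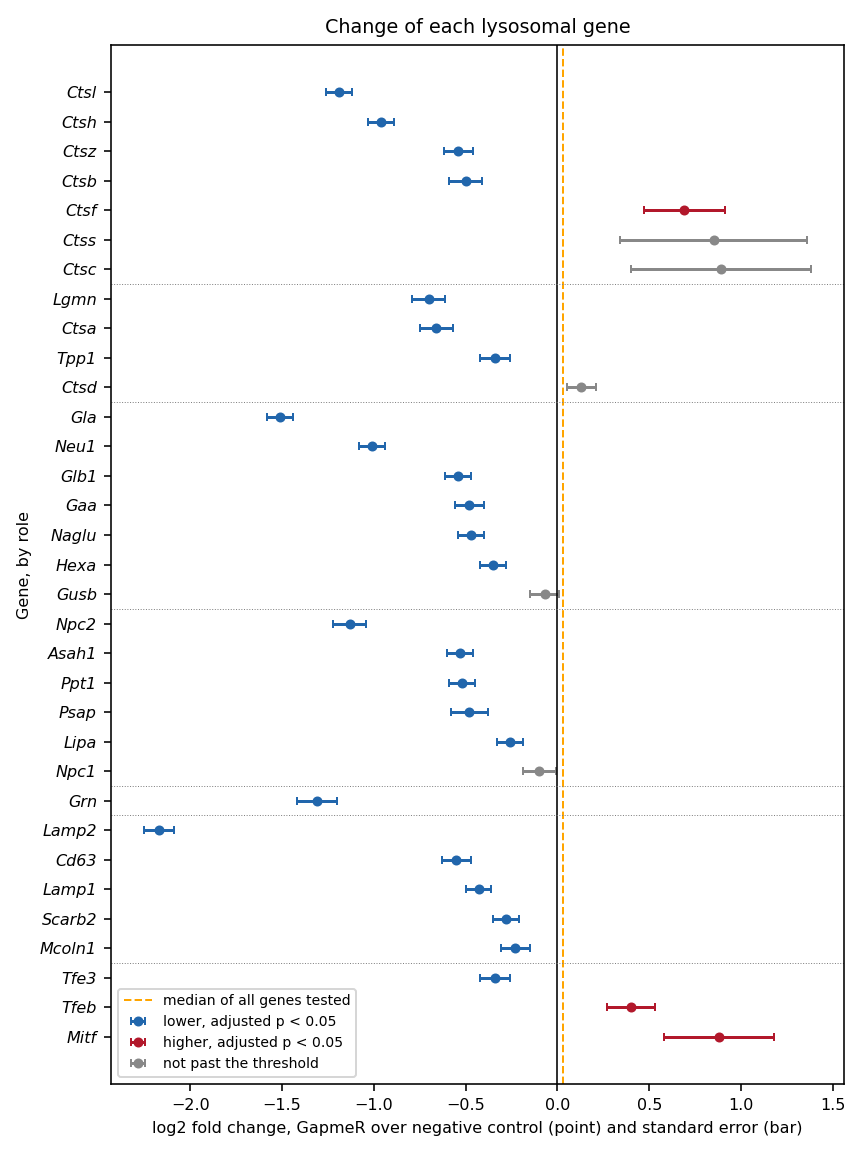
Log2 fold change of GapmeR over negative control (horizontal axis, points) with its standard error (bars) for each of the 33 genes (vertical axis, grouped by role), coloured by edgeR's test. The 25 genes that fell run from -2.17 (Lamp2) to -0.23 (Mcoln1), and the dashed line marks the median of all genes tested at 0.03.

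All 5 membrane proteins among the 33 genes fell, against 20% of all genes tested. Of 33 further lysosomal membrane proteins and transporters tested, 10 fell and 6 rose. Lamp2 (ENSMUSG00000016534, chromosome X, 38399647 to 38456460 on GRCm38) encodes a heavily glycosylated protein of the limiting membrane that takes part in fusion with autophagosomes. GapmeR samples 1 to 4 had 80.7, 88.8, 74.0 and 74.7 CPM of it, and the controls had 345 and 373 CPM. The highest GapmeR sample was thus far below the lower control. Lamp2 averaged 359 ± 19.9 CPM (SD, n = 2) in the controls, compared with 79.5 ± 6.88 CPM (SD, n = 4) in the GapmeR group. It was 4.52-fold lower, with a log2 fold change of -2.17 (SE 0.08, edgeR adjusted p = 5.0e-12). Its sister protein Lamp1 (ENSMUSG00000031447, chromosome 8, 13159161 to 13175338) was at 359, 347, 361 and 362 CPM after knockdown and 478 and 487 CPM in the controls. Lamp1 therefore fell in every sample too, but only by 0.43 on the log2 scale (SE 0.07, edgeR adjusted p = 8.7e-05).

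Cd63, a tetraspanin of late endosomes, lysosomes and, in endothelium, Weibel-Palade bodies, was at 941 to 1109.7 CPM in the GapmeR samples and 1489 and 1535 CPM in the controls, a log2 fold change of -0.55 (SE 0.08). Scarb2, an integral protein of the lysosome membrane also called LIMP-2, fell by 0.28 (SE 0.07, edgeR adjusted p = 0.0041). Mcoln1, the calcium channel TRPML1, was at 42.8, 43.2, 43.9 and 42.7 CPM against 46.8 and 54.1 CPM, and fell by 0.23 (SE 0.08, edgeR adjusted p = 0.0228). For Mcoln1 the 2 controls lay further apart from each other than the lower control did from the GapmeR samples. Without the second control the adjusted p of Mcoln1 was 0.495 and that of Scarb2 0.113, and without GapmeR sample 1 that of Mcoln1 was 0.0543. Scaled to library size only, neither passed the test (0.426 for Mcoln1 and 0.138 for Scarb2).

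Among the 7 cysteine cathepsins of the set, papain-like proteases of the lysosome, 4 fell and 1 rose, against 20% and 25.4% of all genes. Ctsl (ENSMUSG00000021477, chromosome 13, 64361890 to 64370772), an endopeptidase, was at 524, 525, 502 and 499 CPM in the GapmeR samples and 1129.9 and 1204 CPM in the controls. The GapmeR samples were within a narrow band well below the controls, and the log2 fold change was -1.19 (SE 0.07, edgeR adjusted p = 1.5e-09). Ctsh, an aminopeptidase, was at 89.9, 104, 89.9 and 95.8 CPM against 187 and 183 CPM, or 1.95-fold lower (log2 fold change -0.96, SE 0.07, edgeR adjusted p = 2.9e-08). Ctsb, both an endo- and an exopeptidase, was at 1178, 1007, 1241 and 1173 CPM against 1644 and 1619 CPM (log2 fold change -0.50, SE 0.09, edgeR adjusted p = 1.8e-04). Ctsz, a carboxypeptidase also called cathepsin X, fell by 0.54 (SE 0.08), from a mean of 282 to 194 CPM. For all 4 of these genes the groups did not overlap, which was also so for 59.2% of all genes tested.

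The other 3 cysteine cathepsins had positive log2 fold changes. Ctsf, a weakly expressed member of the family, was at 2.30, 2.29, 2.90 and 2.38 CPM after knockdown and 1.31 and 1.72 CPM in the controls, and rose by 0.69 (SE 0.22, edgeR adjusted p = 0.018). Without the first control its adjusted p was 0.164. Ctss, an endopeptidase of antigen-presenting cells, was at 16.2, 17.4, 36.9 and 37.9 CPM against 15.0 and 14.9 CPM, and did not pass the test (log2 fold change 0.85, SE 0.51, edgeR adjusted p = 0.254). GapmeR samples 3 and 4 were more than 2-fold above samples 1 and 2, which lay close to the controls. Ctsc, which activates the serine proteases of leukocyte granules, had the same shape, with 15, 14, 33 and 31 counts in the GapmeR samples and 12 and 10 counts in the controls (log2 fold change 0.89, SE 0.49, edgeR adjusted p = 0.151). Without GapmeR sample 2 it passed the test with a log2 fold change of 1.13 (adjusted p = 0.0472).

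Of the 4 peptidases of other classes, 3 fell, against 20% of all genes. Lgmn, the asparaginyl endopeptidase legumain, was at 72.3, 61.0, 78.7 and 70.5 CPM in the GapmeR samples and 123 and 106 CPM in the controls (log2 fold change -0.70, SE 0.09, edgeR adjusted p = 2.1e-05). Ctsa, the serine carboxypeptidase known as protective protein because it stabilizes beta-galactosidase and neuraminidase, was at 157, 127, 163 and 159 CPM against 249 and 229 CPM (log2 fold change -0.66, SE 0.09, edgeR adjusted p = 3.4e-05). Tpp1, tripeptidyl peptidase of the lysosome, fell by 0.34 (SE 0.08, edgeR adjusted p = 0.0031), and missed the threshold without the first control (adjusted p = 0.0536). Each of these genes was lower in all 4 GapmeR samples than in either control, as were 27.3% of all genes tested.

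Ctsd (ENSMUSG00000007891, chromosome 7, 142375910 to 142387827), the main aspartic protease of the lysosome, stood apart from them. It was at 1009, 883, 997 and 1052 CPM after knockdown and 922 and 874 CPM in the controls. The groups overlapped, and its log2 fold change was 0.13 (SE 0.08, edgeR adjusted p = 0.211). Of the 4 peptidases it was the one whose GapmeR mean, 985 ± 72.1 CPM (SD, n = 4), was above its control mean, 898 ± 34.2 CPM (SD, n = 2). Without GapmeR sample 2, Ctsd passed the test with a log2 fold change of 0.19 (adjusted p = 0.0193).

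The glycosidases of the set, which remove sugars from glycoproteins, glycolipids, glycogen and glycosaminoglycans, fell in 6 of 7 cases, against 20% of all genes. Gla (ENSMUSG00000031266, chromosome X, 134588169 to 134601005), the alpha-galactosidase lacking in Fabry disease, was at 45.2, 43.3, 43.3 and 39.6 CPM in the GapmeR samples and 119 and 125 CPM in the controls. After Lamp2 it had the largest fall of the 33 genes, 2.85-fold (log2 fold change -1.51, SE 0.07, edgeR adjusted p = 7.6e-11). Neu1, the sialidase of the complex that Ctsa stabilizes, was at 28.6, 26.1, 28.3 and 28.3 CPM against 54.5 and 57.3 CPM, or 2.01-fold lower (log2 fold change -1.01, SE 0.07, edgeR adjusted p = 1.6e-08). For both genes the 4 GapmeR values differed little from each other and were far from the controls. The third enzyme of that complex, the beta-galactosidase Glb1, fell by 0.54 (SE 0.07, edgeR adjusted p = 2.3e-05), from 37.6 and 35.8 CPM in the controls to 24.7 to 26.0 CPM.

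Smaller falls were measured for Gaa, the acid alpha-glucosidase that degrades glycogen, by 0.48 (SE 0.08), for Naglu, which acts on heparan sulfate, by 0.47 (SE 0.07), and for Hexa, the alpha subunit of beta-hexosaminidase, by 0.35 (SE 0.07). The largest edgeR adjusted p of these was 8.3e-04, for Hexa. In each of them all GapmeR samples were below both controls, as in 27.3% of all genes tested. Gusb, beta-glucuronidase, was at 68.5, 64.3, 73.4 and 73.0 CPM against 78.1 and 68.7 CPM. Its groups overlapped, and its log2 fold change was -0.07 (SE 0.08, edgeR adjusted p = 0.488), or 0.08 when scaled to library size only.

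Of the 6 genes of the set that handle lipids, 5 fell, against 20% of all genes. Npc2 (ENSMUSG00000021242, chromosome 12, 84754559 to 84773112), the soluble protein that binds cholesterol in the lysosome lumen, was at 268, 221, 276 and 230.3 CPM in the GapmeR samples and 524 and 563 CPM in the controls. It fell 2.18-fold (log2 fold change -1.13, SE 0.09, edgeR adjusted p = 6.2e-08). Npc1, the membrane protein that takes cholesterol over from Npc2, was at 27.9, 25.9, 30.0 and 30.6 CPM against 31.2 and 29.9 CPM. Its groups overlapped and its log2 fold change was -0.10 (SE 0.09, edgeR adjusted p = 0.379), or 0.05 when scaled to library size only. The partners of this export step thus had different values, although the difference between them was not tested.

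Psap, the precursor of the saposins that help sphingolipid hydrolases reach their substrates, was at 1331, 1093, 1487 and 1406 CPM after knockdown and 1843 and 1852 CPM in the controls (log2 fold change -0.48, SE 0.10, edgeR adjusted p = 0.00147). Every GapmeR sample was below the controls, with sample 2 lowest. Asah1, acid ceramidase, fell by 0.53 (SE 0.07) and Ppt1, which removes palmitate from proteins, by 0.52 (SE 0.07). Lipa, the acid lipase for cholesteryl esters and triglycerides, fell by 0.26 (SE 0.07, edgeR adjusted p = 0.00968), and its adjusted p was 0.127 without the first control and 0.0764 without the second.

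Grn (ENSMUSG00000034708, chromosome 11, 102430507 to 102436809) encodes progranulin, a secreted protein that is cut into granulins in lysosomes and that travels there together with prosaposin. It was at 754, 546, 748 and 618 CPM in the GapmeR samples and 1597 and 1708 CPM in the controls. The GapmeR samples differed more among themselves than for most of the 33 genes, but the highest of them was still far below the lower control. Grn averaged 1652 ± 78.4 CPM (SD, n = 2) in the controls, compared with 666 ± 102 CPM (SD, n = 4) in the GapmeR group. Its log2 fold change was -1.31 (SE 0.11, edgeR adjusted p = 9.1e-07).

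The 3 members of the TFEB family in the set did not move together. Tfe3, the highest of the 3 per transcript length, was at 55.8, 48.0, 58.2 and 48.9 CPM after knockdown and 66.0 and 67.4 CPM in the controls, and fell by 0.34 (SE 0.08, edgeR adjusted p = 0.00359). Tfeb was at 9.53, 8.53, 10.2 and 10.6 CPM against 7.01 and 7.65 CPM, and rose by 0.40 (SE 0.13, edgeR adjusted p = 0.0152). Mitf had few counts, 42, 50, 44 and 67 in the GapmeR samples against 24 and 24, and rose by 0.88 (SE 0.30, edgeR adjusted p = 0.0232). In all 3 genes the groups did not overlap, which was also so for 59.2% of all genes tested. The direction of each of the 3 was the same under every scaling tried, although the call of Tfe3 was lost when scaled to library size only (-0.19, adjusted p = 0.065). Without the first control the log2 fold changes of Tfeb (0.36) and Mitf (1.01) were of similar size, but neither passed the test (adjusted p = 0.116 and 0.0724). Mitf also missed the threshold without the second control (0.158) and without GapmeR sample 4 (0.067), and Tfe3 missed it without the second control (0.0686). Tfec, the other member of the family, is not among the 33 genes and is named after its values were seen. It was at 23.2, 24.4, 23.2 and 25.0 CPM against 29.2 and 30.6 CPM and fell by 0.32 (SE 0.08, edgeR adjusted p = 0.00352).

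Levels of different genes were compared per kilobase of the canonical transcript of GENCODE vM39. In the controls Cd63 was highest at 1094 CPM per kb, followed by Grn at 706 and Psap at 697, whose control samples overlapped, then Ctsd at 422 and Ctsb at 341. Lamp2 (202) and Ctsl (197) came next, also with overlapping control samples, ahead of Lamp1 (188). At the low end were Ctss (11.0), Npc1 (5.75), Tfeb (3.12), Ctsf (0.752) and the overlapping pair Mitf (0.164) and Ctsc (0.139 CPM per kb). These lowest 6 genes had the same ranks when levels were taken per kilobase of coding sequence.

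Some canonical transcripts are much longer than their coding sequence, such as Ctsl with 5908 bases, of which 1002 are coding. The order in the middle and at the top therefore depends on the length used. Per kilobase of coding sequence, Cd63 was still first at 2118 CPM per kb, but Ctsb (1604), Npc2 (1216) and Ctsl (1164) followed it, and Grn ranked 6 at 935. The plot of levels per transcript length shows the controls and GapmeR samples of each gene side by side.

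**Figure D3:**
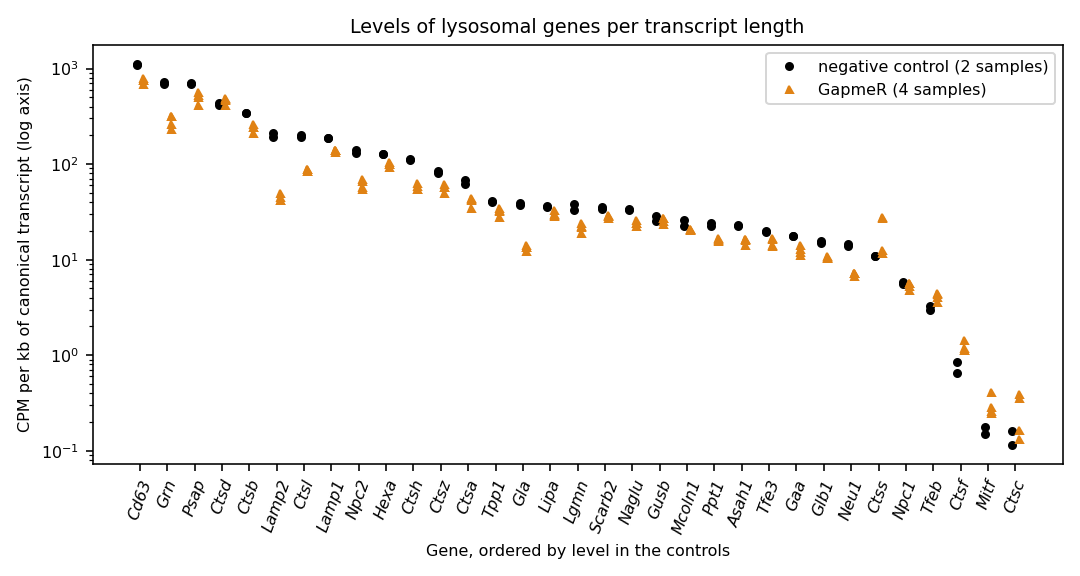
Level of each of the 33 genes in CPM per kilobase of canonical transcript (vertical log axis), ordered by the mean of the controls (horizontal axis), with 2 negative control samples as circles and 4 GapmeR samples as triangles. The levels in the controls run from 1094 (Cd63) to 0.139 CPM per kb (Ctsc), and the GapmeR samples of Lamp2, Ctsl, Grn and Gla are well below their controls.

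Other genes of the same organelle were counted by list. Where a list had 5 or fewer genes in one direction all of them are named, and those beyond the 4 largest changes of the list were chosen after their values were seen. Of 33 further lysosomal hydrolases, 32 were tested, 14 fell and 4 rose (56.2% called, against 45.3% of all genes). The median log2 fold change of these hydrolases was -0.15. Scaled to library size only, 10 fell and 8 rose. Among the genes that fell was Sgsh (-1.08, SE 0.09), an enzyme of heparan sulfate breakdown. Against them stood Ctsk, a cysteine cathepsin best known from osteoclasts, at 8.38, 9.84, 8.61 and 9.84 CPM after knockdown and 0.256 and 0.376 CPM in the controls. These were 284, 383, 267 and 318 counts against 7 and 12, and Ctsk rose by 4.83 on the log2 scale (SE 0.22, edgeR adjusted p = 7.0e-11). The other rises were smaller, in Naaa (0.57, SE 0.16), Ids (0.37, SE 0.09) and Man2b1 (0.35, SE 0.11).

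Of 25 V-ATPase subunits 23 were tested, 14 fell and 1 rose (65.2% called, against 45.3% of all genes), with a median of -0.29. The subunit Tcirg1 was at 253, 228, 262 and 288 CPM against 484 and 506 CPM (log2 fold change -0.94, SE 0.08, edgeR adjusted p = 1.9e-07). Among subunits with a mean of at least 1 CPM the next were Atp6v0a1 (-0.52, SE 0.10), Atp6v0e (-0.50, SE 0.11) and Atp6v1e1 (-0.46, SE 0.07), and the accessory subunit Atp6ap1 rose (0.34, SE 0.08). Atp6v0e2, below 1 CPM in every sample and named after its values were seen, fell by 0.93 (SE 0.35, edgeR adjusted p = 0.0413). When counts were scaled to library size only, 8 subunits fell and 4 rose, and 9 fell without the first control and 7 without the second. The 1 that rose became 0 without the first control, 3 without GapmeR sample 1 and 2 without GapmeR sample 3.

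Other lysosomal membrane proteins and transporters, 33 of 35 tested, were mixed, with 10 lower, 6 higher and a median of 0.09, and at 48.5% called were near the 45.3% of all genes. Under scaling to library size only, 14 were higher, and the 6 became 3 without the first control and 9 without GapmeR sample 2. Laptm4b (-0.93, SE 0.07) and Tmem192 (-0.78, SE 0.08) fell, while the 2-pore channel Tpcn2 (0.85, SE 0.10) and the peptide transporter Abcb9 (0.69, SE 0.14) rose. Of 18 genes for sorting enzymes to the lysosome, 8 fell and 4 rose (66.7% called, median -0.25). Ap1b1 of the adaptor AP-1 fell (-0.83, SE 0.07), and the sorting receptor Sort1 (0.83, SE 0.14), Ap3d1 of the adaptor AP-3 (0.67, SE 0.08) and Gnptab (0.66, SE 0.09), which makes the mannose 6-phosphate tag, rose, as did Ap1g1 (0.30, SE 0.07).

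A list of 22 genes held regulators that act on TFEB, most of them at the lysosome surface, and also Tfec itself. Of these 22, 7 fell, Tfec among them, and 4 rose (median -0.10), and at 50% called the list was near the 45.3% of all genes. Scaled to library size only, 1 fell and 7 rose, and 4 fell without the first control and 2 without the second. Rragd, one of the Rag GTPases that recruit mTORC1 and TFEB, had 31, 32, 41 and 26 counts after knockdown and 66 and 98 counts in the controls, and fell by 1.51 (SE 0.25, edgeR adjusted p = 1.1e-04). Fnip2, a partner of folliculin, rose by 0.89 (SE 0.11), and Tsc1 (0.34, SE 0.07), Mtor (0.33, SE 0.08) and Rptor (0.31, SE 0.08) rose less. Of 42 autophagy genes, 10 fell and 5 rose, which at 35.7% called was below the 45.3% of all genes, and their median was -0.04. Scaled to library size only, 5 of them fell and 12 rose, and 6 fell without the first control and 5 without the second. The receptor Sqstm1, also called p62, was at 2562, 2270.3, 2639.9 and 2499 CPM against 1762 and 1804 CPM and rose by 0.48 (SE 0.08, edgeR adjusted p = 2.3e-04). Epg5 (1.03, SE 0.11) and Pik3r4 (0.59, SE 0.09) rose as well, followed by Tax1bp1 (0.35, SE 0.07) and Wipi2 (0.18, SE 0.07), and the receptor Optn fell (-0.55, SE 0.08).

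Inhibitors of cysteine cathepsins were tested for 5 of 8 genes, of which 3 rose and 1 fell (80% called, against 45.3% of all genes). Cst3, cystatin C, held most of their counts, at 197, 175, 223 and 188 CPM after knockdown and 336 and 329 CPM in the controls, and fell by 0.76 (SE 0.09, edgeR adjusted p = 2.4e-06). Stfa2, a stefin, rose by 2.71 (SE 0.16), and Cst6 (0.31, SE 0.10) and Cstb (0.19, SE 0.07) rose slightly. Without either of the controls 1 of the 5 rose. The stefin A genes are near-identical copies of each other, so the counts of Stfa2 are uncertain. The bar chart of calls by list sets these lists beside all genes.

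**Figure D4:**
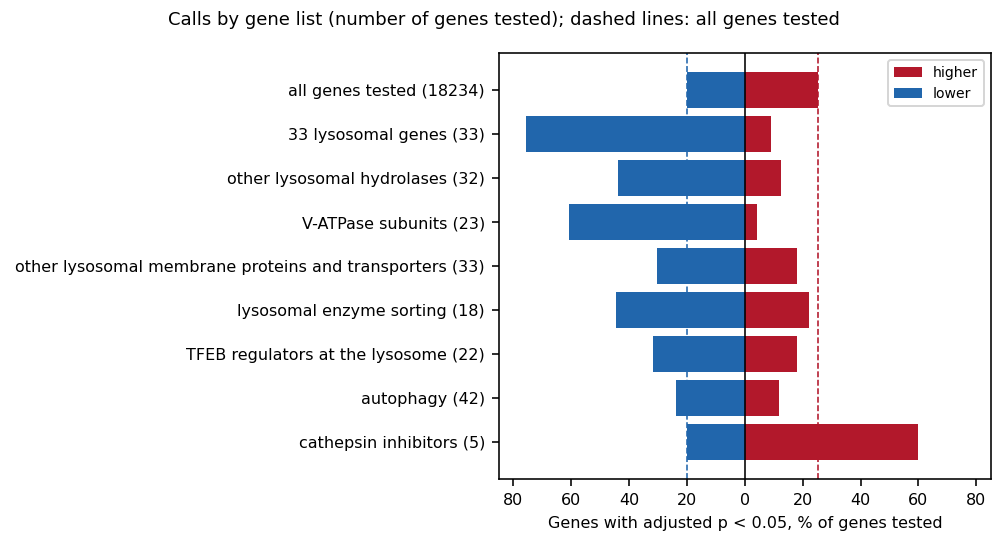
Share of the genes tested in each list (vertical axis, with the number tested) that rose or fell at an edgeR adjusted p under 0.05 (horizontal axis, percent of genes tested, higher to the right and lower to the left), with dashed lines for all genes. The 33 lysosomal genes fell in 75.8% and the V-ATPase subunits in 60.9% of cases, against 20% of all genes.

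Ctss and Ctsc, which in GapmeR samples 3 and 4 stood well above the other samples, moved with markers of another cell type. Of 19 macrophage markers, 15 (78.9%) were higher in both of these samples than in each of the other 4. So were 5 of the 33 lysosomal genes (Ctsc, Ctsf, Ctss, Tfeb and Mitf, 15.2%) and 9.81% of all genes. The 15.2% includes Ctss and Ctsc, which were already known to be high there, so it is not a test. Ctsl, Gla and Lamp2 were lower in both of these samples than in each of the other 4, which is 9.09% of the lysosomal genes against 8.29% of all genes. Genes of other marker lists were higher in both samples too, namely 5 of 11 mural (45.5%), 2 of 5 fibroblast (40%) and 4 of 14 endothelial markers (28.6%). Added together, the 19 markers came to 141, 126, 292 and 329 CPM after knockdown (GapmeR 1 to 4). In the controls they came to 186 and 204 CPM, and none of the 19 was at 0. Mpeg1 was a large part of the control sums, at 87.4 and 113 CPM, against 26.8, 21.3, 39.4 and 37.2 CPM after knockdown. Lyz2, a lysozyme, had the most counts of the 19 over all samples, though fewer than Mpeg1 in the controls. Lyz2 was at 79.1, 73.5, 168 and 206 CPM against 68.8 and 62.1 CPM. Csf1r, the receptor for macrophage colony-stimulating factor, chosen for display after its values were seen, was at 9.33, 7.40, 22.6 and 25.8 CPM against 7.34 and 6.83 CPM. In edgeR's test 3 of the 19 rose and 1 fell (21.1% called, against 45.3% of all genes). These were Fcer1g (1.92, SE 0.30), Mrc1 (1.91, SE 0.43) and the scarce Fcgr1 (1.87, SE 0.46) and, in the other direction, Mpeg1 (-1.69, SE 0.28).

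Without GapmeR samples 3 and 4 the log2 fold change of Ctss was 0.19 (adjusted p = 0.201) and that of Ctsc 0.12 (0.869). The log2 fold changes of Tfeb (0.32), Mitf (0.66), Scarb2 (-0.23) and Mcoln1 (-0.21) kept their sign with these fewer samples but no longer passed the test (adjusted p = 0.0686, 0.0875, 0.0529 and 0.0801). Ctsf still passed it at 0.61 (adjusted p = 0.0427). With those samples left out, 23 of the 25 genes still fell, and 24 of the 28 calls remained.

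**Figure D5:**
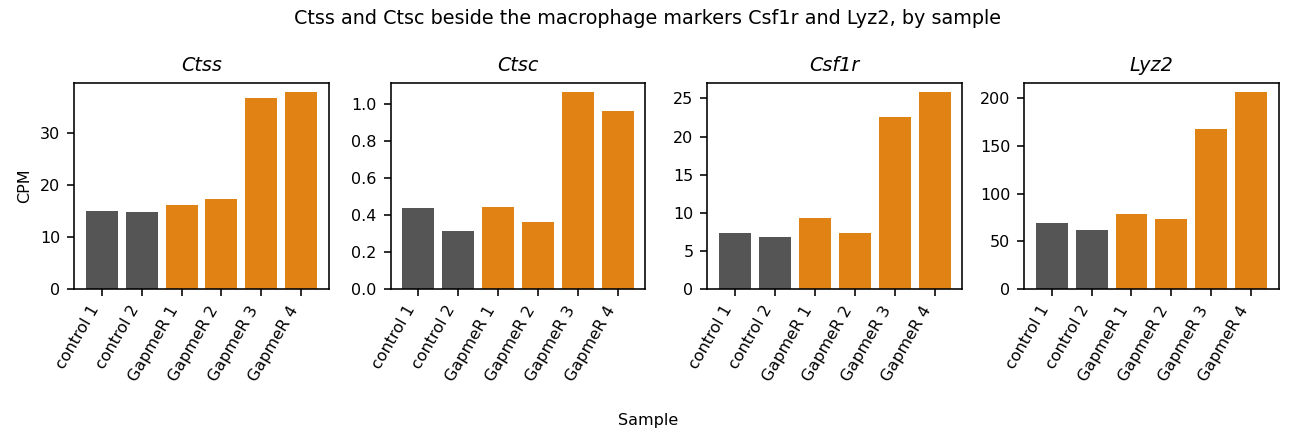
Expression in CPM (vertical axes, from 0) of Ctss, Ctsc, Csf1r and Lyz2 in each sample (horizontal axes), with the negative controls in grey and the GapmeR samples in orange. In all 4 genes GapmeR samples 3 and 4 stand above the other 4 samples, such as 36.9 and 37.9 CPM for Ctss against 14.9 to 17.4 CPM.

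Lists for 5 other cell types were counted in the same way, beside all genes tested, of which 25.4% rose and 20% fell (45.3% called). Mural cell markers, 8 of 11 tested, rose in 3 cases, with Myh11 (4.19, SE 0.24), Notch3 (2.61, SE 0.29) and Tagln (1.96, SE 0.35), and their summed expression was 10.7 to 15.6 CPM in the GapmeR samples and 2.74 and 2.51 CPM in the controls. None of 5 fibroblast markers passed edgeR's test, 1 had an unadjusted p under 0.05, and limma-voom called 1 of them lower. Over all samples the fibroblast marker with the most counts was Pdgfra, but in GapmeR sample 3 it was Col1a1, at 38.0 CPM against 1.68 to 4.58 CPM in the other samples. Col1a2 was at 25.2 CPM there against 1.61 to 3.06 CPM, and the 5 markers together came to 74.2 CPM against 14.5 to 20 CPM. Col1a1 and Col1a2 were chosen after their values were seen. Of 5 astrocyte markers 2 fell, Slc1a2 with the most counts (-0.81, SE 0.22) and Gfap (-1.01, SE 0.33). Of 5 melanocyte markers, the classic targets of Mitf, 1, Pmel, was tested and rose (0.97, SE 0.31), while Dct and Tyrp1 had no counts in any sample. Endothelial markers fell in 7 of 14 cases (50%) and rose in 2 (14.3%). Emcn (-1.33, SE 0.07), Esam (-0.63, SE 0.07) and Eng (-0.59, SE 0.12) were among those lower, and Erg (1.12, SE 0.07) and Egfl7 (0.22, SE 0.09) were higher. Whether macrophages or any other of these cell types took part in the changes of the lysosomal genes was not tested.

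By the RefSeq annotation of GRCm38, 13 of the 33 genes overlap another gene, and the counting setting for strand is not given in the sources used here. They include overlaps of 128 bases between Ppt1 and Cap1, which had a mean of 945 CPM and a log2 fold change of -0.32, 774 bases between Ctsb and Fdft1, and 8464 bases between Asah1 and Frg1. Lamp2 shares 13570 bases with an uncharacterized noncoding gene. Reads in shared stretches cannot be assigned to one gene or the other from these counts.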

How the data were processed

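The deposited table holds whole-number read counts for 49315 Ensembl genes, which the authors made by trimming, alignment with STAR to mm10 (GRCm38) and counting, without normalization. The submitters' processing notes name Trimmomatic 0.36, STAR 2.5.2b and Subread 1.5.2, and the counting settings are not given in the sources used here. From the titles, 4 GapmeR and 2 negative control samples were analysed, while the study gives n = 4 for each group. Another 1 column of counts, from no sample listed here, was left out. The 174 entries without a gene symbol held 0.0025% of counts. Replicates differed by more than sampling noise.

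The filter kept genes that reached 5 counts in 2 or more samples, which were tested with edgeR 4.0.16 in R 4.3.3 (TMM, robust quasi-likelihood, Benjamini-Hochberg over all 18234 genes). The study's own choice, DESeq2's Wald test (1.42.0 here), was run as an alternative, and its 1.5-fold threshold was added to edgeR's calls. Other alternatives were limma 3.58.1 (voom), other scalings and filters, a replicate block and leaving out samples. CPM values are TMM-normalized, and a gene at 3 counts would be at 0.0771 to 0.11 CPM, counting error only. The function for the main edgeR fit was tested on simulated counts, with far fewer changed genes than were called here and balanced directions. The alternatives were not tested in this way.

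The 33 genes and all lists were chosen with earlier results of these data known. The text names all 33, Gm39822, up to 4 genes per list with the largest absolute log2 fold change among those called with a mean of at least 1 CPM, the marker with the most counts and markers at 0, and some genes that this rule picks are not reported here. Python 3.11.15 and pandas 2.3.3 searched the RefSeq promoters, and gene coordinates come from RefSeq on GRCm38.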

Additional observations from a re-analysis of the deposited data

Results flagged for a closer look

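Dixon's test for a value far from the rest was applied to the 4 GapmeR samples for each of the 33 genes. It picked out 3 of the 33 groups of samples, where chance alone is set to pick out about 1 in 20. Gm39822 had too few counts in the GapmeR samples to be tested. For Ctsf, GapmeR sample 3 was the highest at 2.90 CPM, while the other GapmeR samples were at 2.29 to 2.38 CPM. For Ctsa, GapmeR sample 2 was the lowest at 127 CPM, with the others at 157 to 163 CPM. For Neu1, GapmeR sample 2 was also the lowest, at 26.1 CPM, with the others at 28.3 to 28.6 CPM. All 3 values lay on the same side of both controls as the other GapmeR samples did.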

How the results depend on the processing

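The 28 calls among the 33 lysosomal genes were the same 28 with DESeq2's size factors, DESeq2's Wald test, limma-voom and no filter, and Mcoln1 alone was lost with at least 10 counts in every sample, where Gm39822 was not tested. With each sample left out in turn, 21 to 25 of the 33 fell and 0 to 5 rose, their median was -0.49 to -0.43, and 5232 to 8719 genes were called over all; the 0 came without the first control, the 5 without GapmeR sample 2 and the 5232 without the second control. The lists' counts across these fits were 3 to 5 higher and 11 to 14 lower for other hydrolases, 0 to 3 and 7 to 13 for V-ATPase subunits, 3 to 9 and 7 to 11 for other membrane proteins, 4 to 4 and 7 to 9 for sorting, 3 to 5 and 2 to 8 for TFEB regulators, 4 to 6 and 5 to 12 for autophagy, and 1 to 3 and 1 to 1 for cathepsin inhibitors. Gusb turned to 0.04 without the first control and was at -0.14 without the second. Scaled to library size only, the median of the 33 was -0.33, Gusb was at 0.08 and Npc1 at 0.05, Ctsd was called higher, and Lipa, Mcoln1, Scarb2, Tfe3 and Tpp1 were not called. Under that scaling 8 other hydrolases, 4 V-ATPase subunits, 14 other membrane proteins, 7 TFEB regulators and 12 autophagy genes were higher, and 8 V-ATPase subunits, 1 TFEB regulator and 5 autophagy genes were lower. V-ATPase subunits called higher were 2 with DESeq2's size factors, 2 with limma-voom and 3 with no filter. A 1.5-fold threshold left 4628 genes over all and 9 lysosomal genes lower. Without GapmeR samples 3 and 4 together, 1 of the 33 rose and 4 TFEB regulators fell. Apart from the fold threshold, the cause of these differences was not tested.

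The deviations of same-numbered GapmeR and control samples from their groups had correlations of -0.11 and 0.172 over 8870 genes, which are not independent. GapmeR sample 4, which has no partner, reached 0.362 with the first control. With only 2 controls, the deviations of the second are those of the first with the sign reversed. These correlations therefore cannot show whether same-numbered samples were paired. With the replicate number as a block, on the 4 samples with a partner, 7812 genes were called, 1 of the 33 rose, 4 TFEB regulators fell, and the calls of Mcoln1, Mitf, Scarb2 and Tfeb were lost. Depth limited what could be read for Ctsc and Mitf, which had at most 67 counts in a sample, and 2 controls limit the precision of each change.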
